A study of Homo sapiens with 15 samples.

Results

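The response of SCC25 cells to the loss of YBX1 was compared, gene by gene, with the response of SCC15 cells. SCC25 and SCC15 are head and neck cancer lines from oral tumours. The quantity described is an interaction: the log2 change of SCC25 from +YBX1 to –YBX1, less the log2 change of SCC15 from +YBX1 to –YBX1. A value above 0 therefore means that the level moved further up, or less far down, in SCC25 than in SCC15. Genes were kept where the mean level was above 2 log2 CPM (the base-2 logarithm of CPM, a read count scaled to library size) in the +YBX1 libraries of both lines, which left 8819 of the 12995 genes measured (67.9%). A further 1240 genes were above that level in SCC25 alone, 1252 in SCC15 alone and 1684 in neither. Just inside the limit lay TBC1D24 (2.0003 log2 CPM in SCC25 and 2.07 in SCC15), and just outside it lay FKBP14 (2.84 and 1.9989) and BMP4 (1.9966 and 4.06).

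Each of the 4 groups held 3 libraries of 3′ end RNA-seq, 12 of the 15 libraries of the series. All 12 came from cells given a lentiviral pair, Cas9 with mCherry and an inducible guide RNA against YBX1 with GFP, sorted as a double-positive pool and not as a clone. More than 1 guide sequence against YBX1 is listed by the study, and which of them each line carried is not given in the sources used here. The –YBX1 groups received doxycycline at 1 µg/mL, which switches the guide on, and the labels give 3 days for every group. The +YBX1 groups had no doxycycline, and although their genotype is labelled wild type, the titles of all 12 libraries read YBX1KO and differ only in line, doxycycline (DOXneg or DOXpos) and replicate. No group used here had doxycycline without a YBX1 guide, so the effect of the drug and that of YBX1 loss cannot be told apart. The lines also had different media, keratinocyte serum-free medium for SCC25 and serum-containing DMEM for SCC15, and the 2 differences cannot be told apart. Bulk RNA does not separate a change in the number of cells of a kind from a change in RNA per cell.

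YBX1 encodes Y-box binding protein 1, a cold-shock domain protein that binds RNA and single-stranded DNA. In the cytoplasm it coats mRNA and affects its stability and translation, and in the nucleus it has been linked to promoters that carry the inverted CCAAT element known as the Y box and to splicing. It is a known target of growth factor signalling through PI3K and AKT, and it has been studied for its part in proliferation and in the epithelial-mesenchymal transition of carcinoma cells.

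The 12 libraries held 4780340 to 6090488 counted reads, and the 10 most abundant genes took 8.43% to 16.2% of them, the highest share in SCC25 –YBX1 replicate 2. The lines differed in the level of epithelial markers. KRT5, KRT14, CDH1 and TP63 averaged 11.92, 10.82, 7.0 and 7.14 log2 CPM in SCC25 +YBX1, and 1.1, 0.32, -0.12 and -3.05 log2 CPM in SCC15 +YBX1. These 4 genes failed the level limit. KRT18, a keratin of simple epithelia, passed it, with 9.24 log2 CPM in SCC25 +YBX1 and 5.76 in SCC15 +YBX1. The mesenchymal markers VIM, CDH2 and FN1 passed as well. They averaged 9.67, 3.45 and 10.91 log2 CPM in SCC25 +YBX1 and 8.29, 5.50 and 4.12 in SCC15 +YBX1. Only CDH2 of these was higher in SCC15. Of 26 markers of blood, endothelial, fibroblast, melanocyte and neuronal cells, 7 were measured. Their summed level was 73.4 to 143 CPM in SCC25 +YBX1 and 81.2 to 126 CPM in SCC25 –YBX1, against 19.8 to 48.9 CPM and 23.7 to 50.8 CPM in SCC15. The ranges of the +YBX1 and –YBX1 libraries overlapped in each line.

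Promoter sequences are shown for 5 genes on which the description below turns. They come from RefSeq (GRCh38.p14) and hold the 250 bases before the RefSeq start of the gene, read 5′ to 3′ on the strand of the gene. Capitals mark each match to GAAANNGAAA or its reverse complement TTTCNNTTTC, the core of the interferon-stimulated response element, in the first 3, and each match to CCAAT or ATTGG, the Y-box core, in the other two. Overlapping matches were counted separately.
IFI6 promoter (chr1:27672193-27672442, minus strand): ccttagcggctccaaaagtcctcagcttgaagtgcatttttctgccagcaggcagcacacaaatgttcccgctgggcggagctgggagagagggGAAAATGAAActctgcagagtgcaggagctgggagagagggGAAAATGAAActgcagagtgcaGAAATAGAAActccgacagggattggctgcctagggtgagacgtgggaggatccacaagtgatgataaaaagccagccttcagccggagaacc
ISG15 promoter (chr1:1013247-1013496, plus strand): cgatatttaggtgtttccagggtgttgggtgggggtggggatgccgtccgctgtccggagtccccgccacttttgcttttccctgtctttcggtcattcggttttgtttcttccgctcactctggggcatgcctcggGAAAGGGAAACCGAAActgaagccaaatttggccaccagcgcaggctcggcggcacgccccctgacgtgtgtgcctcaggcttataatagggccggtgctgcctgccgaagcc
PLSCR1 promoter (chr3:146544608-146544857, minus strand): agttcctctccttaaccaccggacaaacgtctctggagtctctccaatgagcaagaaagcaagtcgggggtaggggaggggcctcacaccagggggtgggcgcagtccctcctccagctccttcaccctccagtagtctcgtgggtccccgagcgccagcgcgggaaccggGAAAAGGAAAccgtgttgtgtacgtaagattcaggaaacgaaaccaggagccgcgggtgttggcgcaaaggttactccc
FAM117A promoter (chr17:49764132-49764381, minus strand): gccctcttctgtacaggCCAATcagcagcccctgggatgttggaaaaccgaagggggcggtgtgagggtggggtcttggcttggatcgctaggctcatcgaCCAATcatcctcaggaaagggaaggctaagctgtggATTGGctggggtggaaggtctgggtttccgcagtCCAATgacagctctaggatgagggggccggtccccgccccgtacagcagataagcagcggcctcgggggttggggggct
GM2A promoter (chr5:151252935-151253184, plus strand): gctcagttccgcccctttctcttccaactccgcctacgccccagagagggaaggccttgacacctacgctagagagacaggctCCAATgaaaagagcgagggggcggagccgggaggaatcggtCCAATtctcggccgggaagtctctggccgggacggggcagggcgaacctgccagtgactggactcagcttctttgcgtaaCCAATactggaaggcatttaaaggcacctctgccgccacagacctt
IFI6 held 3 matches to the interferon element, ISG15 held 2 overlapping ones and PLSCR1 held 1. FAM117A held 4 matches to the Y-box core, over both strands, and GM2A held 3, all on the strand shown. IFI6 and PLSCR1 also held 1 match each to the Y-box core, not marked here, and ISG15 held 0.

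YBX1 itself had lower levels in every –YBX1 library of both lines. In SCC25 its level was 6.74, 6.31 and 6.62 log2 CPM in the +YBX1 replicates and 5.26, 4.70 and 3.65 in the –YBX1 replicates. The SCC15 libraries had 5.11, 5.56 and 6.00 log2 CPM with YBX1 and 3.36, 3.71 and 3.13 without. Within each line the groups did not overlap, and replicate 3 had the largest difference in both. The log2 change was -2.01 ± 0.35 (SE, 3 libraries a group) in SCC25, which is 75.2% less RNA, and -2.15 ± 0.35 in SCC15, which is 77.5% less. In neither line did YBX1 pass the threshold over all genes, with limma's Benjamini-Hochberg adjusted p at 0.290 in SCC25 and 0.326 in SCC15. The reads count transcript 3′ ends and do not read the edited bases, so they show RNA level and not the share of cut alleles.

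**Figure D1:**
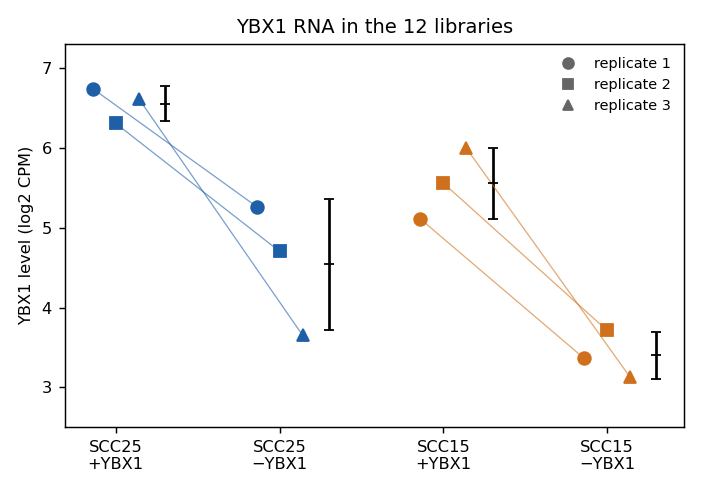
YBX1 level in log2 CPM (y axis) in the 3 libraries of each of the 4 groups (x axis). Symbols mark the replicate number, thin lines join same-numbered libraries of a line, and the black bars give the mean with its SD. The –YBX1 libraries of SCC25 lay between 3.65 and 5.26 and those of SCC15 between 3.13 and 3.71, below every +YBX1 library of the same line.

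The interaction for YBX1 was 0.14 ± 0.49 on the log2 scale, with a 95% interval from -0.91 to 1.19 and an adjusted p of 1.00 (limma). The pair differences were -1.48, -1.60 and -2.96 in SCC25 and -1.75, -1.84 and -2.87 in SCC15. A difference in knockdown between the lines was not detectable, and the interval reaches past a 2-fold difference at its upper end. The sign of the interaction turned when certain libraries were left out, from -0.22 without SCC25 –YBX1 replicate 1 to 0.58 without SCC25 –YBX1 replicate 3. Other cold-shock domain genes that passed the level limit included YBX3, a close relative of YBX1 that also binds mRNA, and CARHSP1, which binds mRNA as well. Their interactions were 0.05 ± 0.19 and 0.15 ± 0.33 on the log2 scale, each smaller than its SE.

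No gene passed the threshold for a difference between the lines. Of 8819 genes, 0 had an adjusted p under 0.05 (0% called, limma, Benjamini-Hochberg over the 12995 genes of the table), and the smallest adjusted p was 1.00. At an unadjusted p under 0.05 there were 144 genes (1.63%), 75 higher in SCC25 (0.850%) and 69 lower (0.782%), and 14 genes (0.159%) had an unadjusted p under 0.01. With same-numbered libraries of a line as a replicate block, the count at an unadjusted p under 0.05 was 303 (3.44%), while 0 genes passed the adjusted threshold and the smallest adjusted p was 0.979. The changes within each line passed in 0 genes as well (0% called in each), with 176 genes at an unadjusted p under 0.05 in SCC25 (2.00%) and 151 in SCC15 (1.71%). In the block these were 385 (4.37%) and 320 (3.63%). The count for the interaction was 362 without SCC25 –YBX1 replicate 2, 234 without SCC25 –YBX1 replicate 1 and 89 without SCC25 +YBX1 replicate 2, and none of the 12 fits with a library removed had a gene that passed.

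The precision set what could be seen. The median SE of the interaction was 0.35 and the median half-width of its 95% interval 0.76 on the log2 scale. In the replicate block within each line these were 0.29 and 0.64. Without the block the interval lay within 1 log2 unit on either side of 0 for 4595 genes (52.1%). A 2-fold difference between the lines lay outside it for these genes. With the block the interval lay within that range for 5674 genes (64.3%). The share without the block was 12.2% among 2346 genes with a mean level up to 4 log2 CPM. It was 58.3% from 4 to 6, 79.4% from 6 to 8 and 81.0% above 8. For low genes the interval mostly reached a 2-fold difference between the lines at this depth and number of libraries. These intervals hold for a single gene and are not adjusted for the number of genes. At the adjusted threshold 0 of 8819 genes passed for the interaction. Even the YBX1 changes of -2.01 in SCC25 and -2.15 in SCC15 did not pass it.

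Across genes the changes of the lines were close to uncorrelated. The log2 changes in SCC25 and SCC15 had the same sign in 4448 of 8819 genes (50.4%), with Pearson's r at 0.03 and Spearman's rho at 0.02 over genes, which are not independent replicates. The lines share no library, so this is not set by a common control. Of the 176 genes at an unadjusted p under 0.05 in SCC25, 83 had the same sign in SCC15 (47.2%), and of the 151 in SCC15, 85 had the same sign in SCC25 (56.3%). Replicate pairs of a single line were also close to uncorrelated. Over the 8819 genes, the correlation of the pair differences ranged from -0.16 to 0.09 within a line and from -0.23 to 0.18 between lines.

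**Figure D2:**
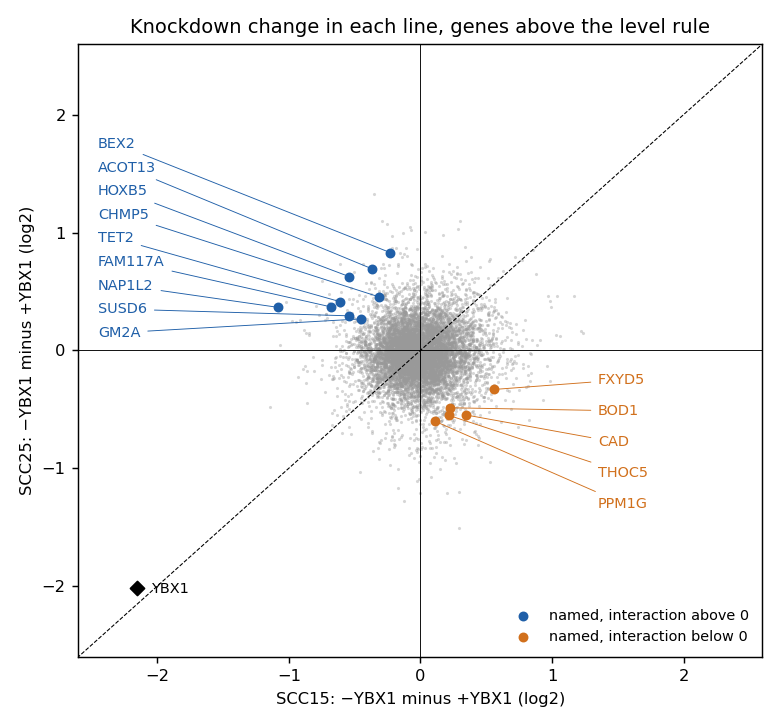
Log2 change from +YBX1 to –YBX1 in SCC15 (x axis) and in SCC25 (y axis) for the 8819 genes, 1 grey point each, with equal change on the dashed line. YBX1 (black) lies at -2.15 and -2.01. The 14 coloured genes were picked for a small unadjusted interaction p and none passed after adjustment.

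Only 4 of the 8819 genes had an unadjusted p under 0.05 in both lines. Of all genes, 2.00% had such a p in SCC25 and 1.71% in SCC15. Whether 4 is more than chance would give was not tested. YBX1, the targeted gene, was lower in both lines. PARP2, an ADP-ribosyltransferase of DNA repair, had log2 changes of 0.41 in SCC25 and 0.56 in SCC15, and MYO9A, an unconventional myosin, had 0.67 and 0.63. These 2 genes were picked after their values had been seen. HOXB5, a homeobox transcription factor, had log2 changes of opposite sign. Its level was 2.42, 2.33 and 2.71 log2 CPM in SCC25 +YBX1 and 3.27, 2.97 and 3.10 in SCC25 –YBX1. The SCC15 libraries had 5.34, 5.39 and 5.06 log2 CPM with YBX1 and 4.61, 5.08 and 4.49 without. The SCC25 groups did not overlap, while SCC15 –YBX1 replicate 2 reached just past the lowest +YBX1 library. HOXB5 counts ran from 25 to 249 reads a library, and its mean of 2.49 log2 CPM in SCC25 +YBX1 lay near the level limit. The log2 change was 0.63 ± 0.24 in SCC25 and -0.54 ± 0.24 in SCC15, an interaction of 1.16 ± 0.34 (unadjusted p = 0.00395, adjusted p = 1.00, limma).

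The 14 genes with an unadjusted p under 0.01 are given as values that did not pass. In all 14 the 3 pair differences of SCC25 lay apart from the 3 of SCC15, as was required for naming. Over all 8819 genes that was so for 817 (9.26%), 386 with SCC25 higher (4.38%) and 431 with SCC25 lower (4.89%).

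On the higher side stood 9 genes. ACOT13, an acyl-CoA thioesterase of lipid metabolism, had the smallest p. Its level was 5.39, 5.00 and 5.69 log2 CPM in SCC25 +YBX1 and 6.01, 6.14 and 6.00 in SCC25 –YBX1, against 5.37, 5.24 and 5.15 in SCC15 +YBX1 and 4.69, 4.99 and 4.98 in SCC15 –YBX1. The groups did not overlap in either line, and the interaction was 1.06 ± 0.27 on the log2 scale. Of 75-base pieces of the ACOT13 3′ end, 26.7% also matched C6orf62, on a strand that was not checked, so its reads may be uncertain. TET2, the dioxygenase that oxidises methylated cytosine in DNA, was steady among replicates. It had 3.53, 3.42 and 3.68 log2 CPM in SCC25 +YBX1 and 3.91, 4.07 and 3.90 in SCC25 –YBX1, against 3.66, 3.67 and 3.60 in SCC15 +YBX1 and 2.96, 3.13 and 3.00 in SCC15 –YBX1. Its interaction was 1.02 ± 0.31, and again no groups of a line overlapped. TET2 counts were low, 53 to 86 reads a library.

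NAP1L2, of the nucleosome assembly protein family, had the largest interaction of the 14 at 1.45 ± 0.39, resting mainly on SCC15, where the pair differences were -1.66, -0.79 and -0.80 against 0.21, 0.68 and 0.20 in SCC25. Its counts were low, 44 to 113 reads a library. BEX2, a small protein of the brain-expressed X-linked family, leaned on SCC25 instead, with pair differences of 0.91, 1.1 and 0.48 there and -0.15, -0.37 and -0.17 in SCC15. BEX1 shares 10.5% of the pieces of its 3′ end. The other interactions on this side were 1.05 ± 0.31 for FAM117A, 0.84 ± 0.26 for SUSD6, a p53-inducible membrane protein, 0.77 ± 0.25 for CHMP5, a subunit of the ESCRT-III machinery of membrane remodelling, and 0.72 ± 0.23 for GM2A, the lysosomal activator of GM2 ganglioside breakdown. The promoters of FAM117A and GM2A, with the CCAAT core marked, are printed above.

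On the lower side stood 5 genes. CAD, the enzyme that starts pyrimidine synthesis, had 7.22, 7.43 and 7.11 log2 CPM in SCC25 +YBX1 and 6.54, 6.77 and 6.79 in SCC25 –YBX1. In SCC15 its level was 6.38, 6.76 and 7.11 log2 CPM with YBX1 and 6.95, 7.18 and 7.18 without. The SCC25 groups did not overlap and the SCC15 groups did, and the interaction was -0.90 ± 0.26. BOD1, a regulator of chromosome attachment in mitosis, had the most even pair differences, -0.47, -0.49 and -0.51 in SCC25 against 0.45, 0.06 and 0.18 in SCC15, and an interaction of -0.72 ± 0.20. PPM1G, a serine/threonine phosphatase, had an interaction of -0.72 ± 0.22 that came from SCC25, where its log2 change was -0.60 against 0.11 in SCC15. THOC5, a subunit of the THO complex of mRNA export, had -0.77 ± 0.26. FXYD5, a regulator of the sodium pump that has been linked to weaker cell adhesion, had -0.89 ± 0.29, with log2 changes of -0.33 in SCC25 and 0.56 in SCC15. Its counts ran from 56 to 397 reads a library. All 14 kept the sign of their interaction with any of the 12 libraries removed. The small p and the lack of overlap required for naming make this likely, so it is no separate support.

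**Figure D3:**
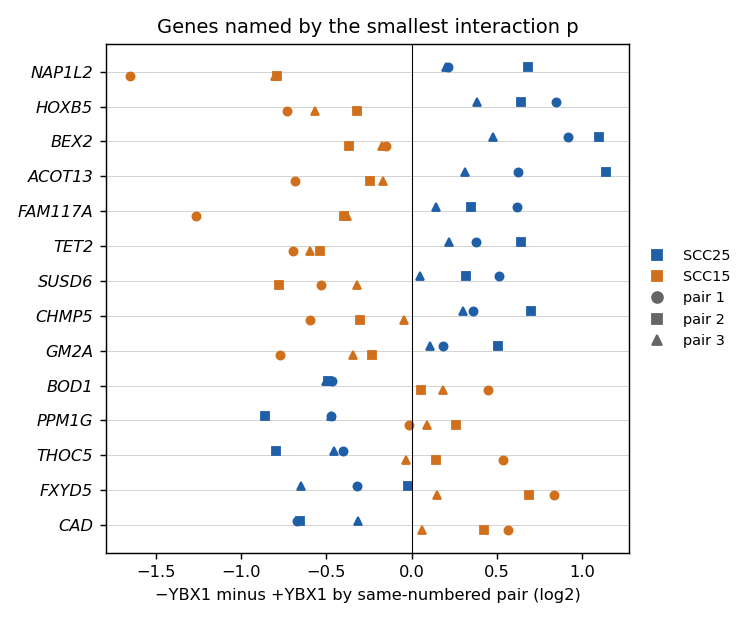
Difference between the –YBX1 and +YBX1 library of the same replicate number (x axis, log2) for the 14 genes with the smallest interaction p (y axis), in SCC25 (blue) and SCC15 (orange). Symbols mark the pair. The genes were required to have no overlap between the lines, the interactions run from -0.90 for CAD to 1.45 for NAP1L2, and the order on the y axis is that of the interaction.

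Interferon-stimulated genes had the largest median interaction of the lists with 10 or more genes, a rank that rested on 1 library. These are genes switched on by interferon, and many restrict viral replication. Of 52 measured, 15 passed the level limit. Their median interaction was 0.42 on the log2 scale against -0.01 over all 8819 genes, and 13 of the 15 were above 0 against 49.1% of all genes. The median log2 change was 0.52 in SCC25 and -0.01 in SCC15. By pair the median was 0.50, 1.05 and 0.06 in SCC25, whereas the SCC15 pairs had 0.02, -0.01 and 0.05, so that SCC25 pair 2 and, less so, pair 1 carried it. SCC25 –YBX1 replicate 2 is also the library whose 10 most abundant genes took 16.2% of the reads, and the part of this in the result was not tested. Without SCC25 –YBX1 replicate 2 the median interaction was 0.07, below those of the mesenchymal (0.16), NRF2 (0.10) and glycolysis lists, and with each of the 12 libraries removed in turn it ranged from 0.07 to 0.81. None passed the adjusted threshold, and 1 of 15 had an unadjusted p under 0.05 (1.63% of all genes). In the replicate block 5 of 15 had such a p, all higher (3.44% of all genes). The pair differences lay apart in 4 of 15 (26.7%, against 9.26% of all genes).

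IFI6, an interferon-induced protein that limits apoptosis, had 9.25, 9.12 and 9.54 log2 CPM in SCC25 +YBX1 and 10.79, 10.94 and 9.46 in SCC25 –YBX1. SCC15 had 5.38, 4.26 and 3.99 log2 CPM with YBX1 and 4.97, 3.90 and 3.90 without. SCC25 –YBX1 replicates 1 and 2 stood above all SCC25 +YBX1 libraries and replicate 3 did not. Its interaction was 1.38 ± 0.59 (unadjusted p = 0.0345, adjusted p = 1.00, limma), and 33.7% of the pieces of its 3′ end also matched LINC02574. ISG15, a ubiquitin-like modifier, had pair differences of 0.35, 2.02 and 0.53 in SCC25 and 0.14, -0.59 and -0.21 in SCC15, and an interaction of 1.19 ± 0.78 that was 0.39 without SCC25 –YBX1 replicate 2. PLSCR1, phospholipid scramblase 1, had 1.14, 1.09 and 0.39 in SCC25 against -0.09, -0.43 and -0.12 in SCC15, and an interaction of 1.09 ± 0.54 that was 0.63 without that library. IFITM1, IFITM2 and IFITM3, membrane proteins that block viral entry, had interactions of 0.54 ± 0.96, 0.78 ± 0.49 and 0.42 ± 0.55. Without SCC25 –YBX1 replicate 2 these were -0.34, 0.31 and -0.06, so that the sign turned for IFITM1 and IFITM3. IFITM2 shares 20.9% of the pieces of its 3′ end with other IFITM genes. The interactions below 0 were those of CMTR1 (-0.06) and IFIT5 (-0.03). Apart from IFI6, PLSCR1 and IFITM2, which had the smallest p, these genes were picked after their values had been seen.

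**Figure D4:**
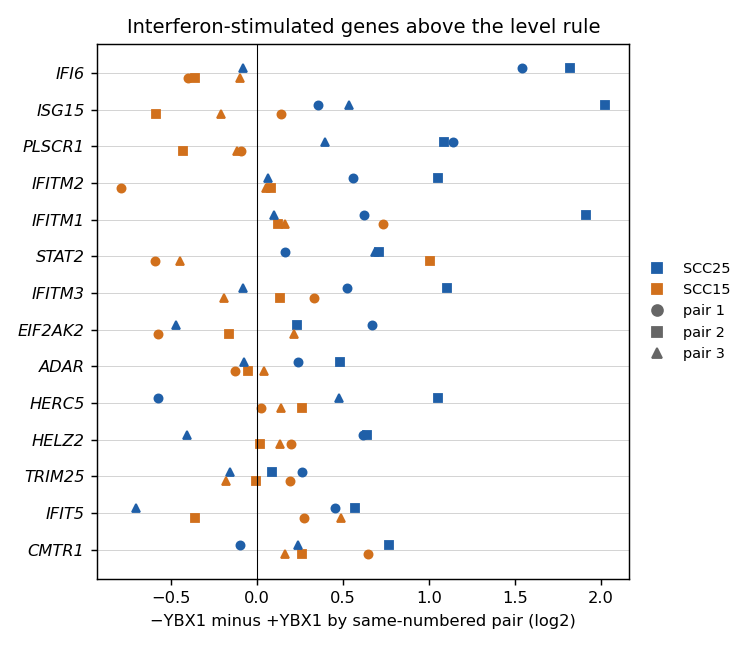
Difference between the –YBX1 and +YBX1 library of the same replicate number (x axis, log2) for 14 of the 15 interferon-stimulated genes that passed the level limit (y axis, ordered by interaction), in SCC25 (blue) and SCC15 (orange). Symbols mark the pair. SCC25 pair 2 reached 2.02 for ISG15 and 1.92 for IFITM1, while SCC25 pair 3 and the SCC15 pairs lay around 0 for most genes.

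The interferon element was found in 7 of the 13 interferon-stimulated genes with a promoter sequence (53.8%), against 1.94% of 7305 genes that passed the level limit and 3.07% of 27305 promoters. The list holds genes that answer to interferon, so this share describes the list and not an effect of YBX1 loss. Among the 14 genes of smallest p the interferon element was found in 0 of 8 on the higher side and 0 of 5 on the lower side, HOXB5 having no sequence. The CCAAT core was found in 2 of 8 on the higher side, FAM117A and GM2A, and in 1 of 5 on the lower side, CAD. Of the 13 interferon-stimulated genes, 5 held the CCAAT core (38.5%). Over the genes that passed the level limit it was found in 36.4%, and over all promoters in 33.0%.

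Genes of ribosome production leaned the other way. Of 106 measured ribosome biogenesis factors, which process and assemble ribosomal RNA in the nucleolus, 104 passed the level limit. Their median interaction was -0.18, with 81 of 104 below 0 (50.9% of all genes), and the median log2 change was -0.22 in SCC25 and -0.02 in SCC15. By pair it was 0.02, -0.54 and -0.07 in SCC25, whereas the SCC15 pairs had -0.10, -0.03 and 0.01, so the value again came from SCC25 pair 2, and the median was 0.01 without SCC25 –YBX1 replicate 2. None passed the adjusted threshold and 4 of 104 had an unadjusted p under 0.05, all lower (0.782% of all genes). In the replicate block 7 had such a p (3.44% of all genes in either direction). The 4 without the block were NLE1, WDR12, DIS3 and DKC1. DIS3, a catalytic subunit of the RNA exosome, was picked after its value had been seen. NLE1, a factor of large subunit assembly, had an interaction of -1.19 ± 0.46 and DKC1, the pseudouridine synthase dyskerin, -0.54 ± 0.25. NLE1 counts were low, 32 to 116 reads a library. The 79 cytosolic ribosomal protein genes had a median interaction of -0.09 with 56 below 0, and the 45 translation initiation factors -0.15 with 34 below 0, a median that was -0.07 without SCC25 –YBX1 replicate 2 and -0.27 without SCC15 –YBX1 replicate 1. None in either list had an unadjusted p under 0.05. In the replicate block 3 translation initiation factors did, all lower (3.44% of all genes in either direction). Among them were PABPC1 and EIF4A2, with an adjusted p of 0.979 each in the block (limma). PABPC1, the poly(A)-binding protein, had -0.47 ± 0.22 and EIF4A2, a helicase of cap-dependent initiation, -0.50 ± 0.26.

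Genes of S phase also leaned lower, while those of mitosis and growth signalling lay near 0. The 66 genes of S phase and replication had a median interaction of -0.14 (-0.08 without SCC25 –YBX1 replicate 2), with 49 of 66 below 0 (50.9% of all genes) and 2 at an unadjusted p under 0.05, both lower (0.782% of all genes). These were TIPIN, a replication fork protein, at -0.93 ± 0.35 and LIG1, DNA ligase 1, at -0.84 ± 0.37. The pair differences lay apart in 7 S phase genes with SCC25 lower and in 3 with SCC25 higher (9.26% of all genes in either direction). POLE2, at 0.65 ± 0.31, was among those with SCC25 higher. The 73 genes of G2/M and mitosis had a median of 0.03 and none at that p. The 47 genes of PI3K, AKT and mTOR signalling had a median of 0.01, with 25 above and 22 below 0, and none at that p, against 2 in the replicate block, both higher (3.44% of all genes in either direction). LAMTOR5, of the Ragulator complex that brings mTORC1 to the lysosome, had 0.59 ± 0.31 and was one of these genes. PIK3R2, a regulatory subunit of PI3K, had -0.54 ± 0.35, but 90.7% of the pieces of its 3′ end also matched another annotated gene. MTOR itself, the kinase, had -0.38 ± 0.26. The 21 MYC and nucleotide synthesis genes had a median of 0.03, with CAD the only gene at an unadjusted p under 0.05 (1.63% of all genes). The 42 apoptosis and p53 target genes had a median of 0.00, with 21 on each side. SUSD6 was the only gene of these at that p (1.63% of all genes).

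Epithelial and mesenchymal genes were mostly out of reach, because few passed in both lines. Of 41 measured epithelial markers 9 passed, with a median interaction of 0.19 and none at an unadjusted p under 0.05, and of 38 squamous differentiation genes 3 passed, with a median of 0.13. Of 63 mesenchymal and partial EMT genes 29 passed, with a median of -0.04, 14 above and 15 below 0. The only gene of the 29 at an unadjusted p under 0.05 (1.63% of all genes) was PDLIM7, an actin-associated adaptor, at -0.61 ± 0.21. LOX, the collagen cross-linking enzyme, had 1.17 ± 0.62 from 21 to 79 reads a library. The 23 TGF-beta and YAP targets had a median of -0.07 and the 4 inflammatory genes that passed of 34 measured had 0.33, SOD2, the mitochondrial superoxide dismutase, with 0.68 ± 0.47 (unadjusted p = 0.173, and 0.00424 in the replicate block, where the adjusted p was 0.979, limma).

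Stress and metabolic genes differed from list to list and from pair to pair. The 36 genes of the ATF4 and amino acid response, which answers amino acid shortage and stress of the endoplasmic reticulum, had a median log2 change of 0.16 in SCC25 and 0.39 in SCC15 and a median interaction of -0.25, with 27 below 0. SCC15 pair 1 had a median of 1.1, where the other SCC15 pairs had 0.09 and 0.08, and the median interaction was 0.07 with the sign turned when SCC15 –YBX1 replicate 1 was left out. TRIB3, a pseudokinase induced by ATF4, had pair differences of -0.50, 0.58 and 0.37 in SCC25 and 2.34, 0.66 and 0.70 in SCC15. None of the 36 had an unadjusted interaction p under 0.05, against 1 in the replicate block (3.44% of all genes). The 23 NRF2 antioxidant genes had a median interaction of 0.19, with 15 above and 8 below 0 (49.1% of all genes above 0). The median was 0.04 without SCC15 –YBX1 replicate 1 and 0.36 without SCC15 –YBX1 replicate 3. Their pair differences lay apart in 5 (21.7%, against 9.26% of all genes), all with SCC25 higher. FTL, the ferritin light chain, had 0.62 ± 0.22, with 27.9% of the pieces of its 3′ end shared with FTLP3, and UGDH, which makes UDP-glucuronate, had 0.76 ± 0.27. UGDH had 5.12, 5.07 and 4.79 log2 CPM in SCC25 +YBX1 and 5.74, 5.44 and 5.26 in SCC25 –YBX1, against 5.01, 5.01 and 4.72 in SCC15 +YBX1 and 4.43, 4.77 and 4.73 in SCC15 –YBX1. The groups of SCC25 did not overlap, and those of SCC15 did.

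The 33 genes of cholesterol and fatty acid synthesis had a median interaction of -0.06, which ranged from -0.16 to 0.17 with a library left out and turned its sign without SCC15 –YBX1 replicate 2 (0.17), among others. Of these genes 3 had an unadjusted p under 0.05, all lower (0.782% of all genes). SREBF1, a master transcription factor of lipid synthesis, had -0.87 ± 0.36, which came from SCC15. There its level was 3.49, 2.87 and 2.93 log2 CPM with YBX1 and 4.35, 3.60 and 3.85 without, a set of groups that did not overlap, while in SCC25 its log2 change was -0.03. ELOVL5, a fatty acid elongase, had -0.49 ± 0.19, and CYP51A1, lanosterol demethylase, -0.59 ± 0.21, although 97.7% of the pieces of the CYP51A1 3′ end matched overlapping or other genes. The 30 glycolysis and hypoxia genes had a median of 0.15, which was 0.06 without SCC15 +YBX1 replicate 1 and 0.28 without SCC25 –YBX1 replicate 3, with 25 of 30 above 0 (49.1% of all genes) and none at that p. The 15 mitochondrially encoded genes had 0.13, with a median of 0.66 in SCC25 pair 2 and of -0.10 and -0.01 in the other SCC25 pairs. Medians of 0.01 for 77 nuclear-encoded respiratory chain genes, -0.02 for 76 mitochondrial ribosomal proteins, -0.01 for 74 splicing genes and 0.03 for 24 immediate early and heat shock genes were close to that of all genes. Each of the first 2 lists had 1 gene at an unadjusted p under 0.05 (1.63% of all genes), NDUFB3 and MRPL33. NDUFB3, a subunit of respiratory complex I, had an interaction of 0.78 ± 0.35 and MRPL33, of the large mitochondrial ribosomal subunit, 0.65 ± 0.28.

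**Figure D5:**
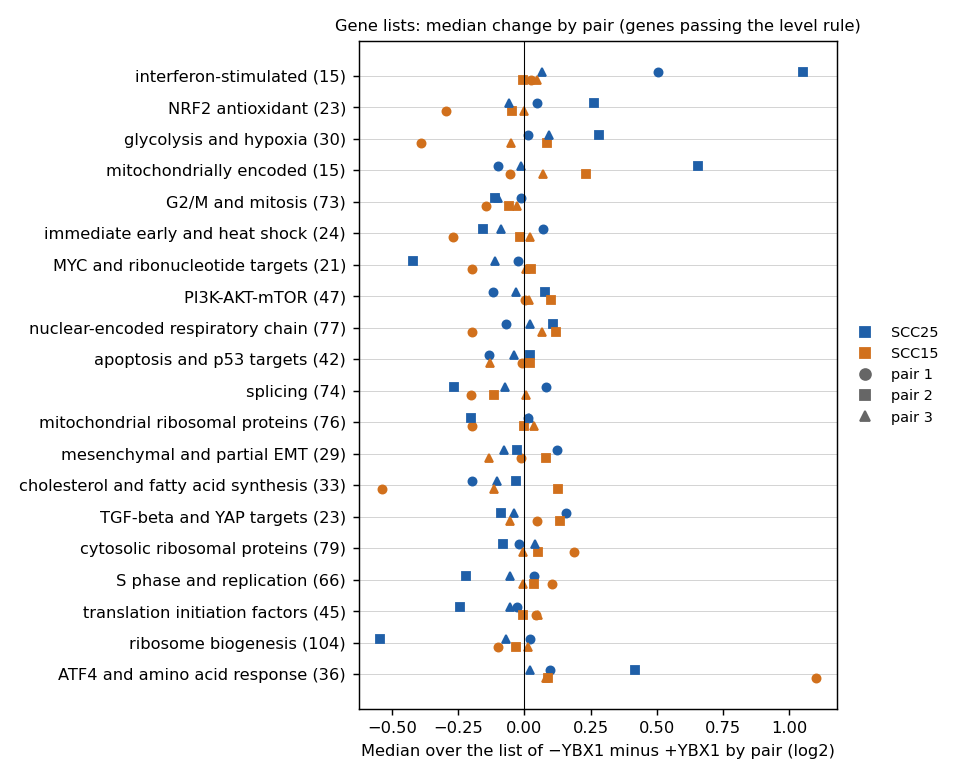
Median over each gene list (y axis, number of genes in brackets) of the difference between the –YBX1 and +YBX1 library of the same replicate number (x axis, log2), in SCC25 (blue) and SCC15 (orange), for lists with 15 or more genes that passed the level limit. Symbols mark the pair. SCC25 pair 2 stands apart at 1.05 for interferon-stimulated genes and -0.54 for ribosome biogenesis, and SCC15 pair 1 at 1.1 for the ATF4 response.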

How the data were processed

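RNA of 4 groups of 3 libraries (SCC15 and SCC25, each +YBX1 and –YBX1) was analysed. QuantSeq 3′ FWD libraries were sequenced as 75-base single-end reads. Per the methods and processing notes, the authors used Cutadapt for trimming, HISAT2 for alignment to hg38, featureCounts for gene counts, and limma for normalisation and filtering. The deposited values are log2 CPM, that is log2 of the reads plus 0.5 over a normalised library size, and taking the lowest value of a library as 0 reads gave whole reads (within 0.05) for 100% of the values. The table of untreated cell lines, with OKF6, was not used. Only the replicate labels separate the samples, so p-values measure the spread between these libraries, which may be technical. Depths cover counting error only.

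The 4 groups were fitted with limma 3.58.1 in R 4.3.3 (lmFit, eBayes with a variance trend, two-sided, Benjamini-Hochberg over all 12995 genes, threshold 0.05). Errors are limma SEs unless called SD. No count model was used. The level limit rests on +YBX1 libraries that also enter the contrast, so an alternative set it over all 12 libraries. Scripts were tested on simulated data. Named genes were YBX1 and the other cold-shock domain genes, up to 12 genes in each direction with an adjusted p under 0.05, filled by unadjusted p under 0.01 among genes whose 3 pair differences do not overlap between lines, the 3 genes of smallest p in each list (of which only some are described, and a few are not reported here), and genes of opposite change with an unadjusted p under 0.05 in both lines. The members and the lists were chosen with earlier results of these data known, and lists are described by counts and medians with no test. Pieces of 75 bases, taken every 5 bases from the last 500 of a transcript, were mapped to annotated human transcripts (GENCODE). This used minimap2 2.31, allowing 1 mismatch, so matches outside annotated transcripts were not seen. Matches on either strand were counted alike, so a gene on the opposite strand can be among them.

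Replicate numbers come from the labels. Over the 8819 genes, deviations of same-numbered +YBX1 and –YBX1 libraries from their group means correlated at 0.49, 0.34 and 0.28 in SCC15 and at 0.10, 0.36 and 0.32 in SCC25 (the lowest over all 12995 genes was 0.08), so the numbers were taken as pairs, and blocked values stand beside the results they move. Alternatives were other scalings, blocks, variance models, level limits, 2 reads added in place of 0.5, voom weights on recovered reads, and the removal of each library by itself. The block without SCC25 pair 2 was added after seeing the data. Plots used Python 3.11.15 with matplotlib 3.10.9.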

Additional observations from a re-analysis of the deposited data

How the results depend on the processing

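The interaction and both single-line comparisons kept 0 calls under every alternative, with 1 exception. Without SCC25 –YBX1 replicate 3 the count in SCC15 was 1, YBX1 itself (adjusted p = 0.0202, limma), so that leaving out a library gave 0 to 1 calls. At an unadjusted p under 0.05 the interaction count was 89 to 362 when a library was left out, 133 with voom weights, 162 after quantile normalization and 431 in the replicate block without SCC25 pair 2. The SCC25 count was 110 to 404, highest without SCC25 –YBX1 replicate 1, and the SCC15 count 107 to 239, highest without SCC15 +YBX1 replicate 3. The replicate block within each line moved these counts as given in the report and changed no adjusted call. It also moved the number at an unadjusted p under 0.05 from 2 to 4 for S phase (1 of the 4, POLE2, higher) and 1 to 2 for apoptosis. That number moved from 1 to 3 for mitochondrial ribosomal proteins, 0 to 3 for splicing, 0 to 1 for mitochondrially encoded and 0 to 1 for inflammatory genes. Over all genes the share moved from 1.63% to 3.44%. The replicate block over both lines gave 159 for the interaction. The sign of the YBX1 interaction turned to -0.08 without SCC15 +YBX1 replicate 3, to -0.22 without SCC25 –YBX1 replicate 1 and to -0.065 in the replicate block without SCC25 pair 2, with a range of -0.22 to 0.58 when a library was left out. The causes were not tested. Other signs that turned belong to interactions smaller than their SE. YBX3 came to -0.0086 and IFIT5 to 0.0076 after quantile normalization, and YBX3 to -0.016, CARHSP1 to -0.096, CSTB to -0.023 and MYO9A to -0.084 in the replicate block without SCC25 pair 2. When a library was left out the range was -0.016 to 0.11 for YBX3, -0.12 to 0.46 for CARHSP1, -0.0034 to 0.55 for DSC2, -0.19 to 0.34 for CSTB, -0.064 to 0.35 for NFKBIA, -0.81 to 0.28 for COL1A1, -0.34 to 1.42 for IFITM1, -0.059 to 0.94 for IFITM3, -0.41 to 0.14 for CMTR1, -0.44 to 0.45 for IFIT5 and -0.14 to 0.17 for MYO9A. No other gene whose interaction is given here turned. Of the 20 lists with 10 or more genes, the median turned its sign in 13 when some library was left out and kept it in 7, those of S phase, NRF2, TGF-beta and YAP, ribosomal protein, glycolysis, interferon and translation initiation genes. At this depth and with 3 libraries a group, the interval reached a 2-fold difference for all but 52.1% of genes. In the replicate block within each line it did so for all but 64.3%.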
